A study of Mus musculus with 12 samples.

Results

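The 58 genes described here encode proteins that splice pre-mRNA or bind it in the nucleus: SR and Tra2 proteins, hnRNP proteins, subunits of the spliceosome and a few further RNA-binding proteins. They were followed through maps of histone H3 acetylated at lysine 36 (H3K36ac). They were chosen as members of named gene families, with the peak calls of these samples already known, and Sfpq, Tardbp and Bud31 in particular were known as well ranked regions called in every sample. The calls, widths, fold values and ranks are therefore given as descriptions, without a test. All 58 genes were found among 21468 protein-coding genes whose start and strand were known in the mm10 build. The question here is how H3K36ac peaks at these starts compared between WT and Sirt7-/- cells, and whether the different kinds of splicing gene were called alike.

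The samples were spermatogonia-enriched cells of Pnd 5 (postnatal day 5) testes from 129S1/Sv mice. There were 3 WT samples and 3 samples from Sirt7-/- mice, numbered 2, 3 and 4 within each genotype, each with 50000 cells of a separate mouse and with its own input library. Sirt7-/- mice lack the deacetylase SIRT7 in every cell, so the testis somatic cells that remain after differential plating lack it too. No other allele, and no treatment, was given for either genotype, and peak lists hold no expression with which the deletion could be checked. Each sample had a list of broad peaks. The lists were of very unequal length, with 906, 64 and 294 peaks in WT replicates 2, 3 and 4 and 2840, 2045 and 2591 peaks in Sirt7-/- replicates 2, 3 and 4. WT replicate 3 stood apart with its 64 peaks, and counts that rest on it are given with and without it. The lists hold no read counts at peaks. The study states clean read totals for all libraries, which are not used as values here, and by them WT replicate 3 was not the shallowest ChIP library. At the starts of 24 germ cell marker genes a peak was called for 1, 0 and 0 genes in the WT samples and for 6, 2 and 4 in the Sirt7-/- samples, with Zbtb16, Gfra1, Etv5, Foxo1, Dmrt1, Dazl, Uchl1 and Itga6 called at least once. At 21 somatic testis marker genes a peak was called for none in any WT sample and for 1 gene in each Sirt7-/- sample, with Sox9, Dhh and Nr5a1 each called at least once. Of all protein-coding starts, 4.38%, 0.317% and 1.35% had a peak in WT replicates 2, 3 and 4 and 13.2%, 9.73% and 11.7% in Sirt7-/- replicates 2, 3 and 4. In at least 1 sample a peak was called for 33.3% of the germ cell and 14.3% of the somatic marker genes, beside 19.7% of all starts. A peak at a marker gene is not a measure of its expression, and the part of somatic cells in the results below was not tested.

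Splicing removes introns in steps carried out by the spliceosome, which is built from small nuclear ribonucleoproteins (snRNPs) and many helper proteins. SR proteins, which carry arginine-serine repeats, mostly bind exons and help the spliceosome to choose splice sites, whereas hnRNP proteins coat nascent RNA and often oppose that choice. The proteins of the core, such as the Sm ring, the SF3 subunits of the U2 snRNP and the PRPF proteins, are used at nearly every intron. Germ cells of the testis are known for a very large variety of spliced transcripts. H3K36ac is found at promoters of transcribed genes, and SIRT7 is an enzyme known to remove acetyl groups from this lysine.

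The promoters of 6 of the genes are printed because the findings turn on them. Sfpq, Tardbp, Bud31 and Pcbp1 were the 4 genes with a peak in all 6 samples, Hnrnpl had a short peak lying just past its transcript start, and Hnrnpf had peaks in all 6 samples at an internal transcript start and none at its gene start. Each sequence runs 5′ to 3′ on the gene's strand over 300 bases, from 250 bases before to 50 bases after a RefSeq transcript start, in the GRCm38.p6 assembly, whose coordinates are those of mm10. Capitals mark the letters CCAAT, the CCAAT box, and GGGCGGG, the GC box, on either strand, so that ATTGG and CCCGCCC are capitals too.
Sfpq, chr4:127021051-127021350, plus strand: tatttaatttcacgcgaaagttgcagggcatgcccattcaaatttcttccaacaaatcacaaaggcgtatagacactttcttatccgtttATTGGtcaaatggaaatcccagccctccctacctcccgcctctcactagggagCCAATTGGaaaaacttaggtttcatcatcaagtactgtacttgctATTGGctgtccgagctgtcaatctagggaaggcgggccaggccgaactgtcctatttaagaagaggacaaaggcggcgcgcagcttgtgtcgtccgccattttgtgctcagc
Tardbp, chr4:148626947-148627246, minus strand: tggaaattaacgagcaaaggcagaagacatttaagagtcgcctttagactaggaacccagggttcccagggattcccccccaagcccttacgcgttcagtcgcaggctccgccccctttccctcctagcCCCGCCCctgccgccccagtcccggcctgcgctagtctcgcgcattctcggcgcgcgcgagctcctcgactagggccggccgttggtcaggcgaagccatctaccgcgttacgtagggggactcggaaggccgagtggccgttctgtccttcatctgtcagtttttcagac
Bud31, chr5:145140126-145140425, plus strand: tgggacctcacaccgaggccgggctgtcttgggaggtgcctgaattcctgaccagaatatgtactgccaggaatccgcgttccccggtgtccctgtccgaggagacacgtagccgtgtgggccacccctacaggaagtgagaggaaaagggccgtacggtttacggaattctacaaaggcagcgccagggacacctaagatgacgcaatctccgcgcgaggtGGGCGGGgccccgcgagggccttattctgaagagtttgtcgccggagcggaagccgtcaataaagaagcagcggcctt
Pcbp1, chr6:86526140-86526439, minus strand: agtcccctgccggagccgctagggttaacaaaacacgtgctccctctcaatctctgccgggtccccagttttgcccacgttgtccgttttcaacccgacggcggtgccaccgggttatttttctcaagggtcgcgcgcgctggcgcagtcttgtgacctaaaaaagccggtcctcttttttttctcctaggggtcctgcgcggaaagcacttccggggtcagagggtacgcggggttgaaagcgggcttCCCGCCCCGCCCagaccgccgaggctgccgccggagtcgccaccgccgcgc
Hnrnpl, chr7:28810640-28810939, plus strand: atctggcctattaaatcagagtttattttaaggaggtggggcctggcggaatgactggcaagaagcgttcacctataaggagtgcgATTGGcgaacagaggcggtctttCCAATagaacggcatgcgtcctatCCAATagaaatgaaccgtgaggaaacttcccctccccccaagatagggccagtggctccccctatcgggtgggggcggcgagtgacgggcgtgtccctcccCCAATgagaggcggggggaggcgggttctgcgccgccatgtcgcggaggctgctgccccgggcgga
Hnrnpf, chr6:117906532-117906831, plus strand: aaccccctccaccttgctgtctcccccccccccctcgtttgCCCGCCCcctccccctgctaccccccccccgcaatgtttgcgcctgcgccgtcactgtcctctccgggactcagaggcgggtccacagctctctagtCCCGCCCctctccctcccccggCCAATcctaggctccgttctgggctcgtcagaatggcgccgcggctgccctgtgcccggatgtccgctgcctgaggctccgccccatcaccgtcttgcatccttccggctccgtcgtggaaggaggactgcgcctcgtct

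The printed sequences differed in how much of them the peaks reached. All 300 bases of the Bud31 promoter lay within the peak of each Sirt7-/- sample, and 252 to 300 bases lay within the peaks of the WT samples. For Pcbp1 the Sirt7-/- peaks held all 300 bases and the WT peaks 0 to 285. For Sfpq the peaks held at most 29 of the 300 bases, for Tardbp at most 119, and for Hnrnpl and Hnrnpf at most 5 and 19, because those peaks began close to the transcript start and ran into the gene. The Sfpq sequence held 4 CCAAT boxes, their leftmost printed bases at -160, -107, -104 and -62 relative to the transcript start (0), with those at -107 and -104 overlapping as CCAATTGG. The Hnrnpl sequence also held 4, at -164, -141, -117 and -16. The Tardbp and Bud31 sequences held 1 GC box each, Pcbp1 held 2 that overlap, and Hnrnpf held 2 with 1 CCAAT box. A match to such letters is a description of the sequence and does not show that a factor binds there.

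A gene was counted as called in a sample when any part of a peak lay within 3000 bp of its start. The splicing and RNA-binding genes were called more often in every Sirt7-/- sample than in any WT sample. In WT, 23, 5 and 10 of the 58 genes had a peak in replicates 2, 3 and 4, or 39.7%, 8.62% and 17.2%, where 4.38%, 0.317% and 1.35% of all protein-coding starts did. In Sirt7-/-, 41, 33 and 36 genes had a peak, or 70.7%, 56.9% and 62.1%, where 13.2%, 9.73% and 11.7% of all starts did. The mean was 12.7 ± 9.29 genes in WT and 36.7 ± 4.04 in Sirt7-/- (SD, n = 3 each), and the groups did not overlap. Fewer cells carrying the mark and less of the mark in each cell cannot be told apart in such samples.

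From WT to Sirt7-/- the share of these genes with a peak went up by fewer times, but by more percentage points, than the share of gene starts at large. The number of splicing genes called was 2.89 times higher in Sirt7-/- than in WT, 4.89 times without WT replicate 2, whose removal lowered the WT mean to 7.5 genes, and 2.22 times without WT replicate 3, whose removal raised it to 16.5. Over all protein-coding starts the mean share was 2.02 ± 2.11% in WT and 11.6 ± 1.74% in Sirt7-/- (SD, n = 3 each), a ratio of 5.73, which was 13.9 without WT replicate 2 and 4.03 without WT replicate 3. The difference was 41.4 percentage points for the splicing genes and 9.54 for all starts. The share among the splicing genes was 9.06, 27.2 and 12.8 times that of all starts in the WT samples and 5.35, 5.85 and 5.29 times in the Sirt7-/- samples. These ratios are given without a test.

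**Figure D1:**
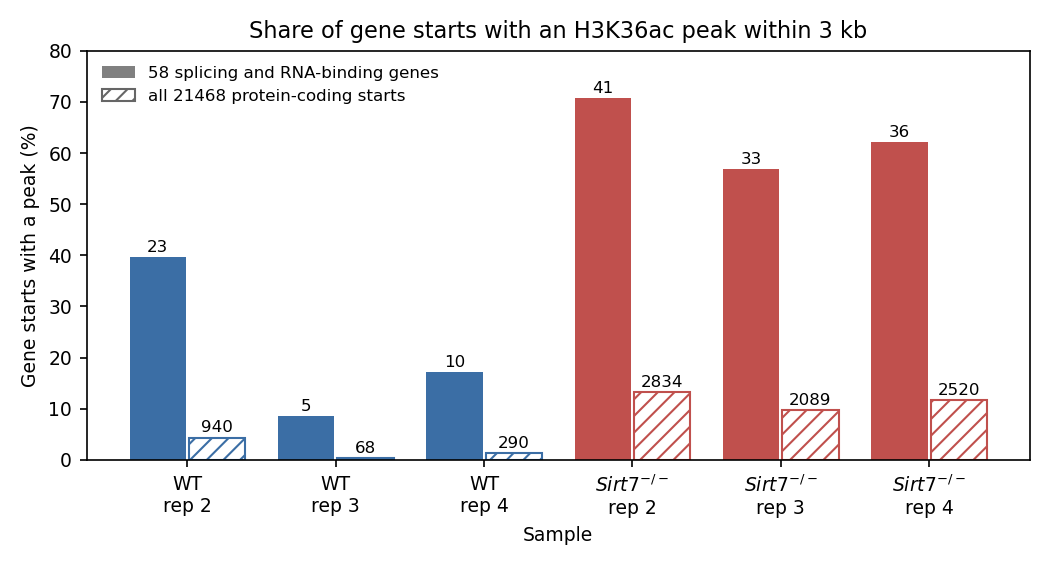
Share of gene starts with an H3K36ac peak within 3000 bp, in percent, for the 58 splicing and RNA-binding genes (filled bars) and all 21468 protein-coding starts (hatched bars) in each sample, with the number of genes called above each bar. The filled bars reach 8.62% to 39.7% in WT and 56.9% to 70.7% in Sirt7-/-, each above the hatched bar of its own sample.

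List length went with these counts. When each list was limited to its 64 best ranked peaks, the length of the shortest list, 6, 5 and 2 of the genes were called in the WT samples and 7, 5 and 3 in the Sirt7-/- samples, a ratio of 1.15 with overlapping groups. All protein-coding starts gave 0.349%, 0.317% and 0.326% in WT and 0.284%, 0.317% and 0.312% in Sirt7-/- at that length. In WT the genes kept were Hnrnpab, Hnrnpd, Hnrnpl, Bud31, Tardbp and Rbm39 in replicate 2, Sfpq, Hnrnpl, Pcbp1, Bud31 and Tardbp in replicate 3, and Bud31 and Tardbp in replicate 4. In Sirt7-/- they were Srsf4, Tra2a, Hnrnpd, Hnrnpl, Hnrnpr, Hnrnpu and Tardbp in replicate 2, Srsf5, Hnrnpu, Bud31, Tardbp and Rbm39 in replicate 3, and Srsf6, Hnrnpd and Hnrnpl in replicate 4. With equal numbers of peaks the genotypes were therefore not separated by these genes. The cut sets the number of peaks in each list, so a difference in list length between the genotypes cannot appear in it. The part of list length in the counts above was not tested.

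Over the 6 samples, 49 of the 58 genes (84.5%) had a peak in at least 1 sample, against 19.7% of all protein-coding starts. A peak was called in all 3 Sirt7-/- samples for 25 genes (43.1%; all starts 5.09%) and in at least 1 WT sample for 24 genes (41.4%; all starts 5.12%). At least 2 WT samples called 10 genes (17.2%; all starts 0.824%). All 6 samples called 4 genes (6.90%; all starts 0.0932%), namely Sfpq, Pcbp1, Bud31 and Tardbp. Without WT replicate 3, 9 genes were called in all the samples that remained, with Hnrnpa0, Hnrnpab, Ptbp2, Snrpb and Rbm39 added. Calls in every Sirt7-/- sample but never in WT were found for 6 genes (10.3%; all starts 2.45%), namely Srsf6, Srsf7, Srsf10, Tra2b, U2af1 and Ddx5. That count was 14 without WT replicate 2 and 13 without Sirt7-/- replicate 3, each over the samples that remained. A WT call without calls in all 3 Sirt7-/- samples was found for 5 genes (8.62%; all starts 2.47%), of which only Sf3b4 had no Sirt7-/- call. Every gene called in 2 or 3 WT samples was also called in all 3 Sirt7-/- samples.

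**Figure D2:**
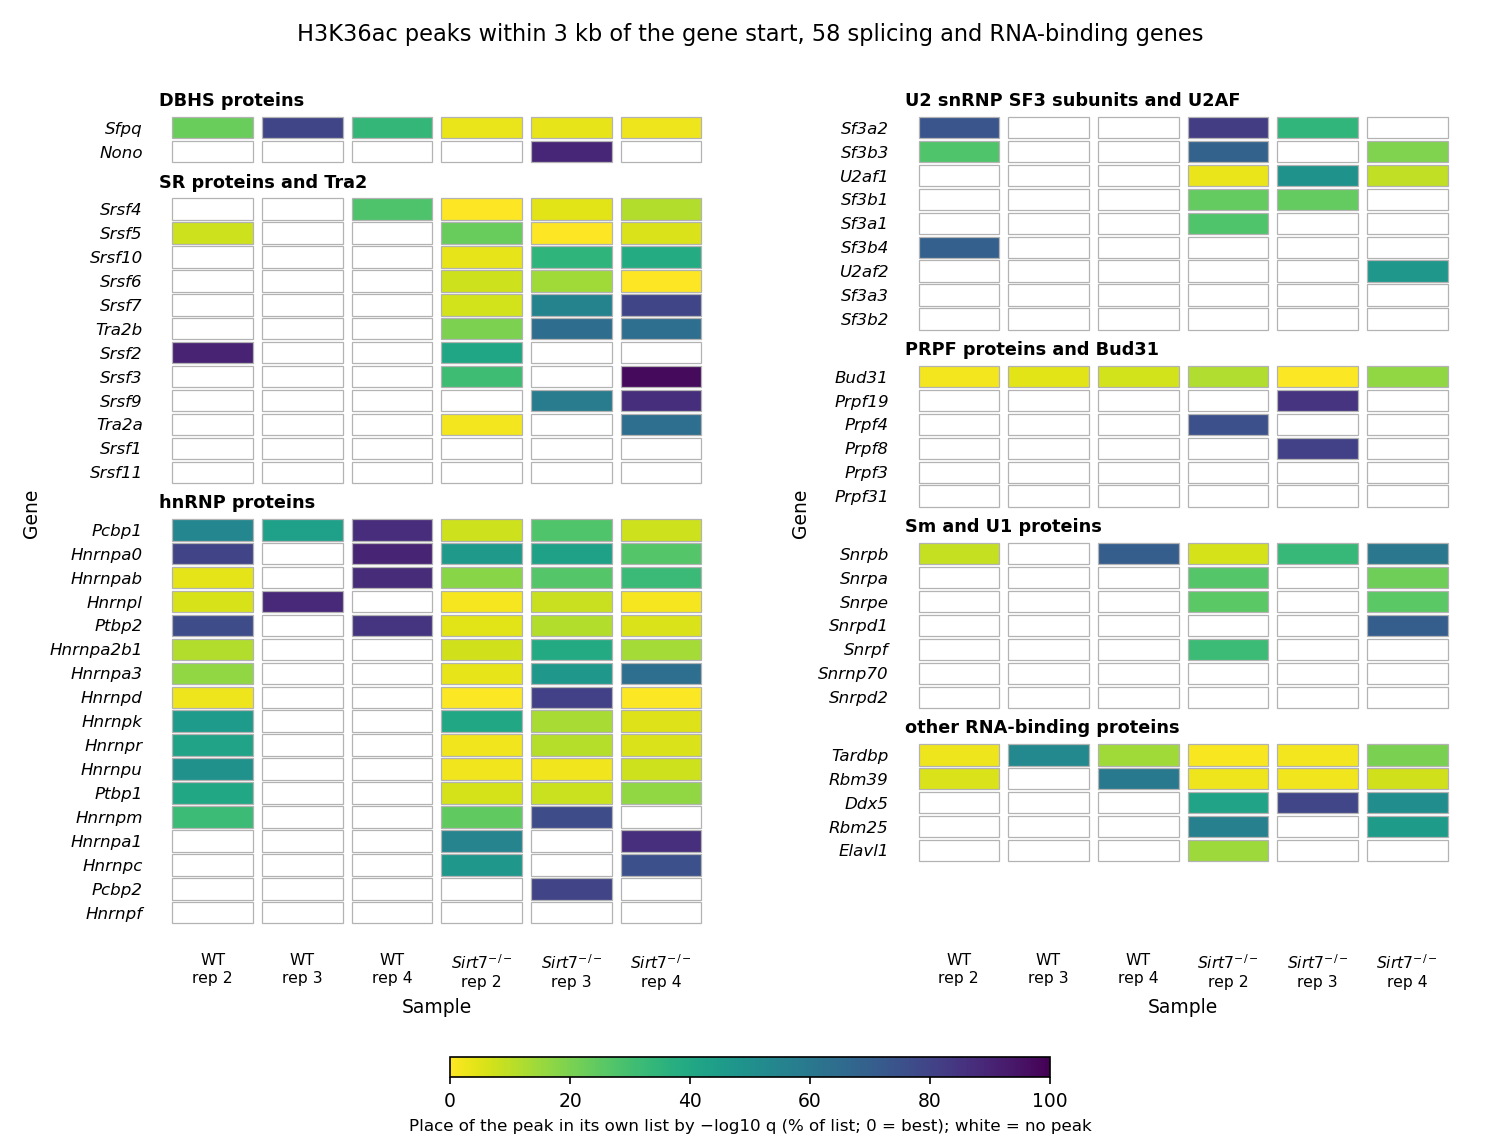
Peak calls for the 58 genes (rows, grouped by role) in the 6 samples (columns). Colour gives the place of the best ranked peak within its own list by the authors' -log10 q, in percent of the list with 0 as the best, and white marks no peak within 3000 bp; Sfpq, Pcbp1, Bud31 and Tardbp are filled in all 6 columns and 9 genes are white throughout.

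The calls differed between the roles. Of all protein-coding starts, 5.09% were called in all 3 Sirt7-/- samples, 19.7% in at least 1 sample and 5.12% in at least 1 WT sample. Among hnRNP proteins 12 of 17 genes (70.6%) were called in all 3 Sirt7-/- samples, 16 in at least 1 sample and 13 in at least 1 WT sample. Among SR proteins and Tra2, 6 of 12 genes (50%) had a peak in every Sirt7-/- sample and 10 in any sample, but only 3 in any WT sample. Of the 6 genes called throughout Sirt7-/- but never in WT, 4 belonged to this group. The groups of the spliceosome's core were lower in the share called in all 3 Sirt7-/- samples, though still above that of all starts. U2af1 was the 1 gene of 9 (11.1%) among the SF3 subunits and U2AF to be called in all 3 Sirt7-/- samples, Bud31 the 1 of 6 (16.7%) among the PRPF proteins and Bud31, and Snrpb the 1 of 7 (14.3%) among the Sm and U1 proteins. In any sample, 7, 4 and 5 genes of these groups had a peak. The remaining RNA-binding proteins gave 3 of 5 (60%), and of the DBHS pair, paraspeckle proteins that bind RNA and DNA, Sfpq was called in all 6 samples and its partner Nono in Sirt7-/- replicate 3 alone.

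Other genes of the splicing pathway were counted in the same way, from lists that were also drawn up with earlier results known. Of 123 such genes, 31 (25.2%) had a peak in every Sirt7-/- sample and 72 (58.5%) in any sample, beside 5.09% and 19.7% of all starts. Per sample, 18, 4 and 9 were called in WT and 59, 48 and 49 in Sirt7-/-. Further hnRNP, SR and RNA-binding proteins gave 22 of 52 (42.3%) in all 3 Sirt7-/- samples and SR protein kinases 3 of 6 (50%). Further Sm, LSm and snRNP proteins gave 3 of 26 (11.5%), with no gene called in a WT sample, and catalytic and assembly factors 3 of 39 (7.69%). Matr3, which encodes the nuclear matrix protein matrin 3, was the 1 gene of the 123 called in all 6 samples. The best ranked in Sirt7-/- was Dhx15, a helicase that takes spliceosomes apart, at ranks 26, 4 and 88 in replicates 2, 3 and 4.

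**Figure D3:**
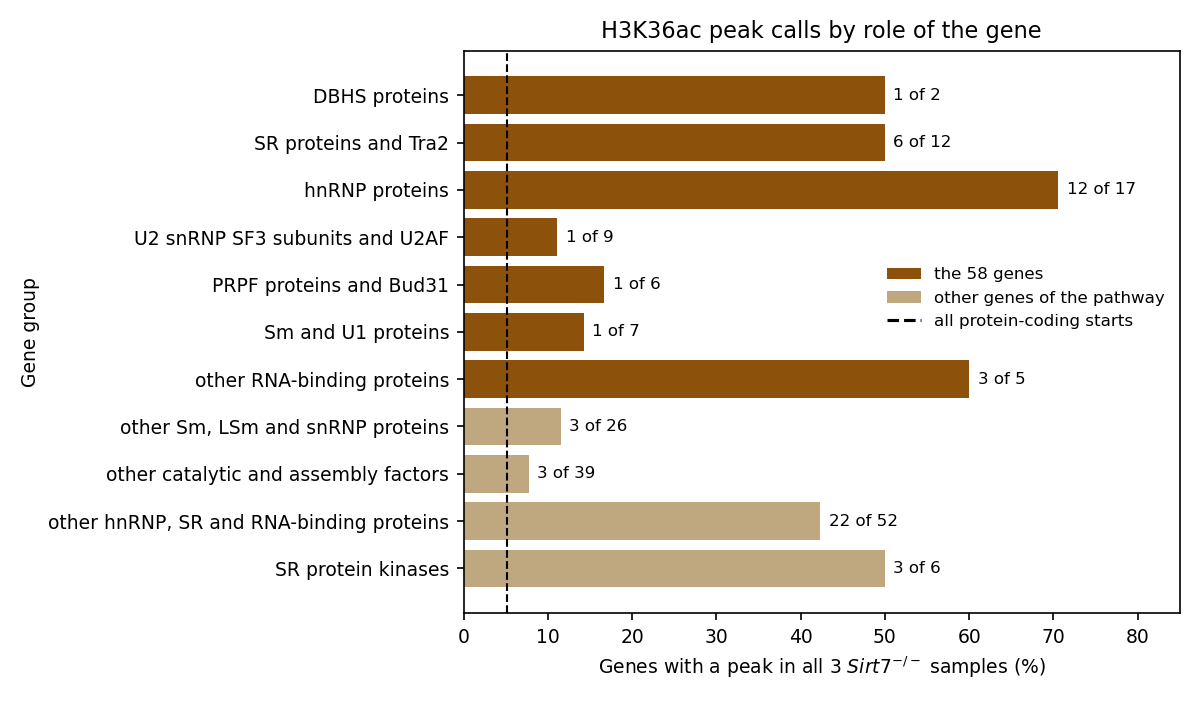
Share of each gene group with an H3K36ac peak in all 3 Sirt7-/- samples, in percent, for the 7 role groups of the 58 genes (dark bars) and 4 lists of other genes of the pathway (light bars), with counts at the bar ends and the share of all protein-coding starts as a dashed line. The hnRNP bar reaches 70.6% and the SR and Tra2 bar 50%, while the 3 core groups reach 11.1% to 16.7% and the dashed line stands at 5.09%.

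The 4 genes called in every sample came from 4 different roles. Sfpq (chr4, start 127020716, plus strand) encodes a DBHS protein that takes part in splicing and in paraspeckles. Its peaks spanned 842, 319 and 252 bp in WT replicates 2, 3 and 4 and 910, 798 and 752 bp in Sirt7-/- replicates 2, 3 and 4. They ranked 207 of 906, 51 of 64 and 99 of 294 in WT and 96 of 2840, 78 of 2045 and 67 of 2591 in Sirt7-/-. The fold over input as the authors' caller gave it was 4.78, 4.35 and 5.01 in WT and 5.65, 6.39 and 5.62 in Sirt7-/-. The Sirt7-/- peaks of Sfpq thus lay in the best 4% of each list, with folds above every WT fold, and in width only WT replicate 2 came up to them. A fold belongs to its own list and its own input, and is not a measure of signal that can be compared between lists. Where folds are set in order between the genotypes, here and below, the order describes the printed values and not the amount of the mark.

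Tardbp (chr4, start 148627084, minus strand) encodes TDP-43, which binds UG-rich RNA and keeps cryptic exons out of mRNA. Its peaks spanned 712, 629 and 378 bp in WT and 1004, 668 and 483 bp in Sirt7-/-. They ranked 24, 34 and 42 in the WT lists and 24, 32 and 520 in the Sirt7-/- lists, with folds of 6.17, 4.30 and 5.82 and of 6.58, 7.21 and 4.33. Its values overlapped between the genotypes in width, in fold and in place within the list. The poorest place was in WT replicate 3, at 53.1% of its list from the top. Sirt7-/- replicate 4, at 20.1%, had the poorest place and the lowest fold among the Sirt7-/- samples. Bud31 (chr5, start 145140376, plus strand) encodes a protein of the catalytically active spliceosome. Its peaks spanned 516, 325 and 252 bp in WT and 715, 524 and 767 bp in Sirt7-/-, with ranks of 15, 3 and 20 and of 342, 15 and 429, and folds of 5.96, 6.42 and 6.12 and of 4.60, 7.64 and 4.87. The Bud31 peaks were wider in each Sirt7-/- sample than in any WT sample, while its rank was among the best 20 peaks in every WT list and in that of Sirt7-/- replicate 3 alone. The Bud31 start lies 351 bp from that of Pdap1 on the opposite strand, and the peak of Sirt7-/- replicate 2 was nearer to Pdap1.

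Pcbp1 (chr6, start 86526189, minus strand) encodes a protein that binds runs of C in RNA. Its peaks spanned 437, 997 and 505 bp in WT and 1745, 1392 and 2117 bp in Sirt7-/-. The WT peaks of Pcbp1 were shorter stretches of the region that the Sirt7-/- peaks covered together. They reached from 86526876 to 86527312 and from 86526392 to 86527388 upstream of the start in replicates 2 and 3, and from 86525920 to 86526424 across it in replicate 4. In Sirt7-/- a single peak crossed the start in each sample, reaching from 86525578 to 86527322, from 86525828 to 86527219 and from 86525403 to 86527519. Folds were close but each Sirt7-/- value was above each WT value, at 4.39, 4.95 and 4.67 in WT and 5.32, 5.07 and 5.19 in Sirt7-/-, and ranks were 491, 28 and 257 and 213, 564 and 200.

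Hnrnpf, which encodes a protein that binds runs of G in RNA, was the 1 gene whose status turned on which start was taken. Its gene start (chr6, 117900340, plus strand) had no peak within 3000 bp in any sample, and the nearest peak edge was 6473 bp away. That peak lay just past another RefSeq transcript start of the gene, at 117906782, whose promoter is the one printed above. Peaks were called there in all 6 samples. In WT they spanned 755, 1035 and 1144 bp and began 65, 282 and 204 bp past this transcript start in replicates 2, 3 and 4. In Sirt7-/- they spanned 1354, 1249 and 697 bp and began 68, 98 and 31 bp past it. They ranked 225 of 906, 59 of 64 and 170 of 294 in WT and 143 of 2840, 290 of 2045 and 238 of 2591 in Sirt7-/-. A further RefSeq transcript start, at 117907804, lay inside the peaks of WT replicates 3 and 4 and Sirt7-/- replicates 2 and 3. The widths overlapped between the genotypes, and folds ran from 4.38 to 5.63 over the samples. With RefSeq transcript starts in place of gene starts, a choice made after seeing the data, Hnrnpf joined the genes called in all 6 samples, which then numbered 5, and no other gene of the 58 changed in any sample. No other member had a peak within its gene beyond 3000 bp from its start.

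**Figure D4:**
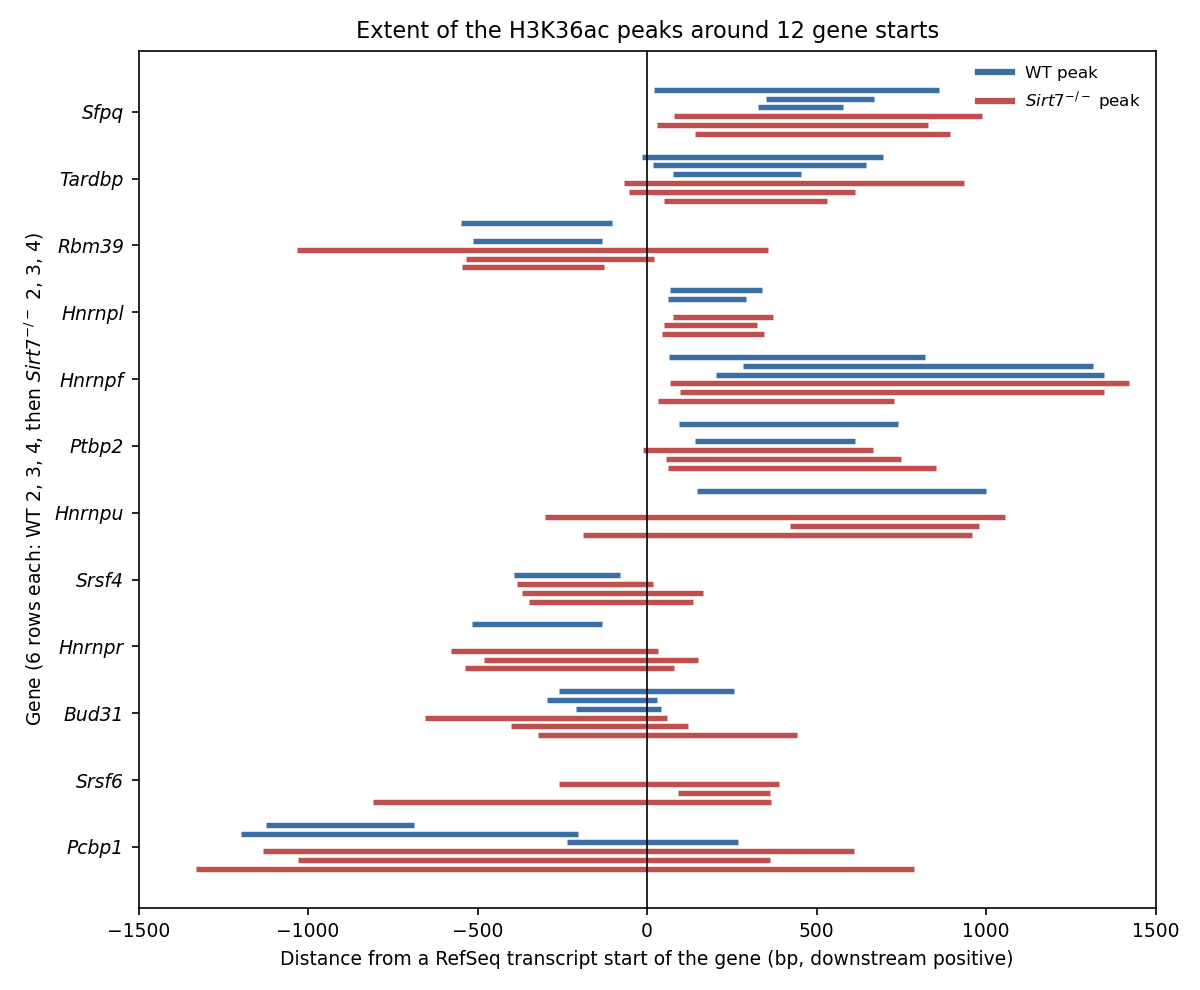
Extent of the peaks of 12 genes relative to 1 RefSeq transcript start per gene (bp, downstream positive). The start taken was the one nearest to most of the gene's peaks, except for Hnrnpf, where it was that at 117906782. Each gene has 6 rows, WT replicates 2, 3 and 4 in blue and Sirt7-/- replicates 2, 3 and 4 in red. An empty row marks a sample with no peak called. The Sfpq, Hnrnpl and Hnrnpf bars begin past the start, the Bud31 bars cross it, and the red Pcbp1 bars (1392 to 2117 bp) span most of the places covered by the blue ones (437 to 997 bp).

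Among the hnRNP genes, Hnrnpl, whose protein binds CA repeats, had a short and well ranked peak. Its best ranked peak spanned 275 and 230 bp in WT replicates 2 and 3 and 297, 276 and 302 bp in Sirt7-/-, at ranks 56 of 906, 57 of 64, 34 of 2840, 169 of 2045 and 34 of 2591. Its folds were 5.60 and 4.40 in WT and 5.22, 5.32 and 5.87 in Sirt7-/-. The peak lay at nearly the same place in all 5 samples, its midpoint 176.5 to 223 bp past the transcript start at chr7, 28810890, and WT replicate 4 had none. WT replicate 2 and all 3 Sirt7-/- samples also had a second Hnrnpl peak, near the gene start at 28808546. It lay 315 bp from that start in WT and 0, 248 and 205 bp in Sirt7-/- replicates 2, 3 and 4. Hnrnpu encodes a scaffold protein of the nuclear matrix. It had a peak of 853 bp in WT replicate 2 at rank 453, and peaks of 1359, 559 and 1148 bp in Sirt7-/- at ranks 56, 43 and 199, with folds of 4.61 and of 6.28, 6.74 and 4.53. The Hnrnpu fold was higher than the WT value in Sirt7-/- replicates 2 and 3 and not in replicate 4.

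Hnrnpr, a close relative of the RNA-binding protein SYNCRIP, had a peak of 385 bp in WT replicate 2 and of 612, 631 and 616 bp in Sirt7-/-, at ranks 381 of 906 and 61, 224 and 151. Its folds were 4.41 in WT and 6.17, 5.98 and 5.50 in Sirt7-/-, each above the single WT value. Ptbp2 encodes a polypyrimidine tract binding protein known from neurons and germ cells. It had peaks of 647 and 474 bp in WT replicates 2 and 4, at ranks 698 and 249 and folds of 3.63 and 4.61. In Sirt7-/- its peaks spanned 678, 696 and 790 bp, at ranks 126, 234 and 149 and folds of 4.74, 5.87 and 5.39. Every Ptbp2 width in Sirt7-/- was above both WT widths. The same held for the printed folds, which are not comparable as signal between lists. Its nearest peak edge in any sample lay 1248 bp from the gene start, the farthest of the genes counted as called, and Hnrnpf, at 6473 bp, was the nearest of those not called.

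Hnrnpa0 and Hnrnpab encode abundant hnRNP proteins that were each called in 2 WT samples. Hnrnpa0 peaks spanned 1023 and 471 bp in WT replicates 2 and 4 and 1385, 1269 and 1287 bp in Sirt7-/-, at ranks 723 and 265 and 1314, 877 and 691. The peak crossed the gene start in all 5 samples, was wider in each Sirt7-/- sample and had folds between 3.87 and 4.64. Hnrnpab was not ordered in this way. Its peaks spanned 1143 and 439 bp in WT replicates 2 and 4 and 693, 342 and 555 bp in Sirt7-/-, with ranks of 36 and 258 and of 503, 548 and 831, so that the genotypes overlapped and WT replicate 2 had the widest and best ranked peak.

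Hnrnpm, which encodes another abundant hnRNP protein, was called in WT replicate 2 and in Sirt7-/- replicates 2 and 3, at ranks 288, 696 and 1577 with peaks of 297, 377 and 330 bp. The calls in WT came mostly from 1 sample here: WT replicate 2 called 13 of the 17 hnRNP genes, and WT replicates 3 and 4 called 2 and 4. Hnrnpa2b1, Hnrnpa3, Hnrnpd, Hnrnpk and Ptbp1, like Hnrnpr and Hnrnpu, were called in all 3 Sirt7-/- samples and had WT replicate 2 as their only WT call. Hnrnpa1 and Hnrnpc were called in 2 Sirt7-/- samples each and Pcbp2 in 1, with no WT call.

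SR protein genes had few calls in WT. Srsf4 had a peak of 316 bp in WT replicate 4, with a fold of 5.42 at rank 82 of 294, and peaks of 402, 534 and 483 bp in Sirt7-/-, with folds of 6.84, 6.54 and 4.33 at ranks 10, 89 and 301. The WT peak overlapped the place of the Sirt7-/- peaks, was shorter than each of them and had a fold between theirs. Srsf6 was called in no WT sample. In Sirt7-/- its peaks spanned 650, 273 and 1174 bp with folds of 4.80, 5.42 and 7.40, and ranked 218, 292 and 3, so that the place of this gene differed widely between replicates. Srsf10, whose protein can act as a repressor of splicing, had peaks of 1198, 964 and 899 bp at ranks 105, 711 and 1007, all crossing the gene start. Srsf7 had short peaks of 279, 223 and 402 bp at ranks 194, 1128 and 2057. Tra2b, which encodes a partner of SR proteins that binds GAA-rich exons, had peaks of 519, 751 and 615 bp at ranks 565, 1321 and 1667. In Srsf7, Srsf10 and Tra2b the best rank was in replicate 2.

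Srsf2 was called in replicate 2 of each genotype, with a peak of 902 bp at rank 821 of 906 in WT and of 772 bp at rank 1164 of 2840 in Sirt7-/-. Srsf5 had a peak in WT replicate 2 and in each Sirt7-/- sample. Srsf3, Srsf9 and Tra2a were called in 2 Sirt7-/- samples each and in no WT sample. Srsf1 and Srsf11 were called nowhere. The nearest peak to the start of Srsf1, the founding member of the family, was 308659 bp away.

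In the core of the spliceosome, U2af1, whose protein reads the AG at the end of an intron, was called in each Sirt7-/- sample and never in WT. Its peaks spanned 384, 422 and 796 bp with folds of 5.98, 4.72 and 5.04, at ranks 95, 1008 and 252. U2af2, its partner, was called in Sirt7-/- replicate 4 alone. Snrpb encodes Sm proteins of the ring that holds snRNPs together. It had peaks of 353 and 285 bp in WT replicates 2 and 4, at ranks 79 and 207, and of 1064, 319 and 308 bp in Sirt7-/-, at ranks 180, 679 and 1562. Its folds were 5.43 and 4.86 in WT and 5.61, 5.19 and 3.75 in Sirt7-/-, and the values of the genotypes overlapped.

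Sf3a2, Sf3b3 and Sf3b4 encode subunits of the U2 snRNP, which recognises the branch point, and each was called in WT replicate 2 and not in all Sirt7-/- samples. Sf3a2 was called in WT replicate 2 and Sirt7-/- replicates 2 and 3 at ranks 667, 2338 and 708, with peaks of 736, 905 and 211 bp. Sf3b3 was called in WT replicate 2 and Sirt7-/- replicates 2 and 4 at ranks 251, 1952 and 502, with peaks of 525, 965 and 658 bp. Sf3b4 had its 1 peak in WT replicate 2, of 675 bp at rank 632 of 906 with a fold of 4.33, and was the 1 gene of the 58 called in WT and not in any Sirt7-/- sample. Sf3a3, Sf3b2, Prpf3, Prpf31, Snrpd2 and Snrnp70 were called in no sample, with the nearest peak between 13908 bp (Sf3a3) and 121935 bp (Snrpd2) from the start. Sf3a1, U2af2, Prpf4, Prpf8, Prpf19, Snrpd1 and Snrpf were called in 1 Sirt7-/- sample each, and Sf3b1, Snrpa and Snrpe in 2.

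Of the other RNA-binding proteins, Rbm39 encodes a relative of U2AF that binds splicing factors. It had peaks of 448 and 382 bp in WT replicates 2 and 4, at ranks 53 and 175 with folds of 5.85 and 5.00. In Sirt7-/- its peaks spanned 1390, 553 and 420 bp at ranks 74, 41 and 186 with folds of 5.82, 6.76 and 4.71. Width and fold overlapped between the genotypes. Ddx5, which encodes an RNA helicase and is named here although it fell outside the rule for named genes, had peaks of 1184, 962 and 1056 bp at ranks 1196, 1620 and 1330 in Sirt7-/- and none in WT. All 3 Ddx5 peaks were nearer to the start of Cep95, 545 bp away on the opposite strand, than to the Ddx5 gene start. They all covered another RefSeq transcript start of Ddx5, at 106788494. Rbm25 was called in 2 Sirt7-/- samples and Elavl1, whose protein HuR binds AU-rich RNA, in 1.

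By mean place in the 3 Sirt7-/- lists, the 10 best ranked genes were Sfpq (3.26% of the list from the top), Hnrnpl (3.59%), Hnrnpu (3.92%), Rbm39 (3.93%), Srsf4 (5.44%), Hnrnpr (6.31%), Ptbp2 (7.21%), Srsf6 (7.36%), Tardbp (7.49%) and Bud31 (9.78%). They include 4 hnRNP genes and 2 SR genes, and Bud31 is the only core gene among them. The median place of the called genes was 14.8%, 33.2% and 21.1% from the top in Sirt7-/-, where 0% is the best, and 27.7%, 53.1% and 65.0% in WT. Peaks at promoters in general had medians between 47.6% and 51.6% in all 6 lists. Those medians count every peak near a protein-coding start, not the best ranked peak of each gene alone. The best 10% of each list held 8, 1 and 1 of the 23, 5 and 10 genes called in WT. In Sirt7-/- it held 19, 9 and 12 of the 41, 33 and 36 genes called. The matching share of all promoter peaks was not counted.

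Peaks at the splicing genes were wider in each Sirt7-/- sample than in any WT sample by the median. Median widths were 549, 325 and 380 bp in WT and 678, 553 and 572 bp in Sirt7-/-, with means of 418 ± 117 and 601 ± 67.4 bp (SD, n = 3 each). Promoter peaks in general were also wider, with median widths of 316 ± 53.8 bp in WT and 472 ± 17.6 bp in Sirt7-/-. In each of the 6 samples the median of the splicing genes was above that of promoter peaks at large. The median fold did not separate the genotypes, at 4.89, 4.40 and 4.93 in WT and 4.71, 5.07 and 4.42 in Sirt7-/-, and the folds of single genes ran from 3.22 to 7.82.

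The place of a peak relative to the gene start was not used to choose the genes, but the rule for a call admits only peaks within 3000 bp of it. The place was tested for the peaks called by this rule, so with gene starts the Hnrnpf peaks did not enter. Each median rests on the genes called in that sample, from 5 in WT replicate 3 to 41 in Sirt7-/- replicate 2. A shift of peaks and a change in which genes were called cannot be told apart in it. The median midpoint lay 331.5, 419 and 316.75 bp downstream of the gene start in WT and 346.5, 366.5 and 416.75 bp in Sirt7-/-. The means were 356 ± 55.3 and 377 ± 36.2 bp (SD, n = 3 each), a difference of 20.8 bp that was within the spread between replicates (two-sided exact permutation test, p = 0.6, where 20 assignments allow no p below 0.1). The size of this difference depended on the peaks and starts taken. It was 94.7 bp with a window of 1000 bp (exact permutation p = 0.3), 177 bp with the 64 best peaks of each list (p = 0.2, exact), and -0.917 bp when peaks were counted only for their nearest protein-coding start (p = 1, exact). It was 289 bp with peaks of -log10 q of at least 2, which left 18, 2 and 4 genes in WT, and 122 bp from the nearest RefSeq transcript start, and in both of these the exact p was 0.1, the smallest possible. Against RefSeq transcript starts, the Sirt7-/- peaks of these genes covered a start in 51.1 ± 4.08% of cases, lay downstream in 45.2 ± 5.01% and upstream in 3.72 ± 1.11%. For all protein-coding genes the Sirt7-/- shares were 39.0%, 44.9% and 16.1%, and the WT shares 26.9%, 51.2% and 21.9%. In WT the splicing genes gave 32.1 ± 11.5%, 51.2 ± 11.6% and 16.7 ± 4.88%, with 5 genes alone behind WT replicate 3. These values describe called peaks and were not tested.

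Several starts share their peak with a neighbour. Another gene start lay within 1000 bp of 22 of the 58 starts, and for 16 of them it was a protein-coding start on the opposite strand. The peak was nearer to another protein-coding start for Hnrnpd (4930524J08Rik) and Hnrnpk (Rmi1) in all 4 samples that called them, and for Ddx5 (Cep95) in all 3. The same held in some samples for Hnrnpa2b1 (Cbx3), Sf3a2 (Plekhj1), Sf3b3 (Cog4) and Bud31 (Pdap1). Counting each peak for its nearest protein-coding start alone left 20, 5 and 10 genes in WT and 36, 30 and 32 in Sirt7-/-, and took Hnrnpd, Hnrnpk and Ddx5 out of every sample. An H3K36ac peak between a divergent pair cannot be given to either gene from these files.

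The promoters of the splicing genes were rich in CpG. A RefSeq promoter sequence was matched for 54 of the 58 genes, and Snrpb, Sf3b4, U2af2 and Snrpd1 had none. The median of these 300-base sequences was 25 CpG and 60.3% GC, where 17492 protein-coding promoters had 13 CpG and 56.3% GC. The 24 promoters of genes called in all 3 Sirt7-/- samples had a median of 31.5 CpG, the 21 called in 1 or 2 had 24 and the 9 called in none had 23. All protein-coding promoters called in all 3 Sirt7-/- samples had a median of 29 and those called in none had 9. The splicing genes without a Sirt7-/- call thus had CpG counts well above those of uncalled promoters at large, and closer to those of called ones. Hnrnpf entered with the promoter at its gene start, which had 7 CpG, where the internal one printed above had 24. Counts ran from 0 in Rbm25, which was called in 2 Sirt7-/- samples, to 52. The Rbm25 sequence was that at the transcript start 83635710, whereas the gene start lay upstream, at 83632208. Both Rbm25 peaks lay near the gene start, beginning 131 and 462 bp past it in Sirt7-/- replicates 2 and 4. Their midpoints were at -2987.5 and -2904.5 bp from the transcript start, so neither peak reached the sequence counted. Among the genes called in all 6 samples, Sfpq had 13 CpG, Bud31 24, Tardbp 27 and Pcbp1 32. Promoters of SR, Tra2 and hnRNP genes had a median of 32 CpG (n = 29) and those of the core groups 23.5 (n = 18). Of these 2 sets, the one called more often was thus the richer in CpG. The other roles were not in this comparison, and the DBHS pair had 13 CpG in Sfpq and 23 in Nono.

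**Figure D5:**
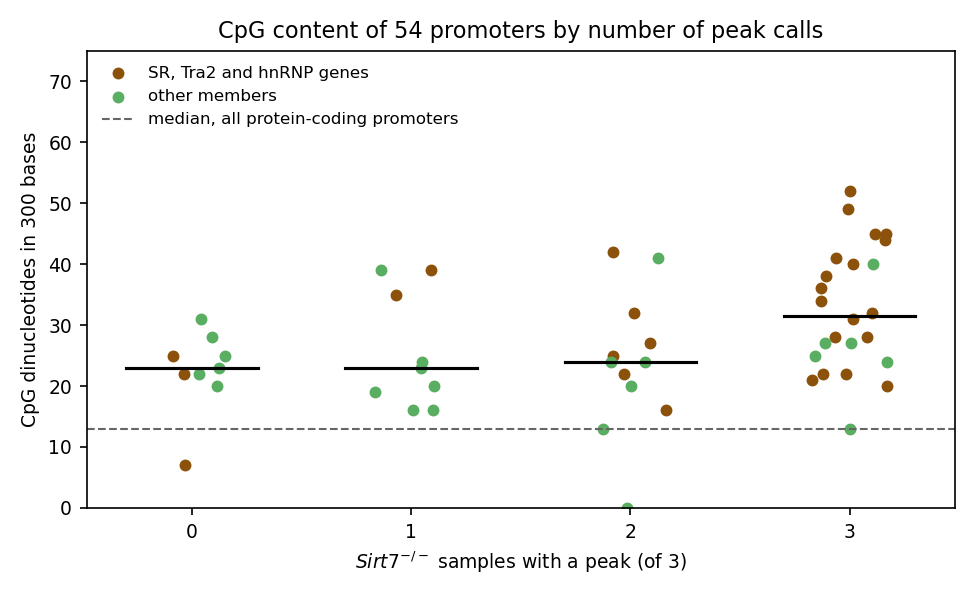
CpG dinucleotides in the 300-base promoter of each of 54 genes (points) by the number of Sirt7-/- samples with a peak, with the median of each column as a black bar and that of 17492 protein-coding promoters (13) as a dashed line. Most points lie above the dashed line in every column, and the column of genes called in all 3 samples has a median of 31.5.

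Short motifs were searched by their letters on both strands of the same 300 bases. The GC box GGGCGGG was in 24 of the 54 promoters (44.4%; all promoters 34.0%), and in 17 of the 24 called in all 3 Sirt7-/- samples (70.8%), where 53.8% of all protein-coding promoters so called held it. The CCAAT box was in 27 (50.0%; all promoters 39.2%). The ETS motif CCGGAAGT was in 9 (16.7%; all 5.28%) and the E-box CACGTG in 7 (13.0%; all 7.91%). The NRF1 motif GCGCATGC was in 3 (5.56%; all 3.61%), the YY1 motif AAGATGGC in 2 (3.70%; all 3.21%), the CRE TGACGTCA in 2 (3.70%; all 2.33%) and the TATA box TATAAA in 7 (13.0%; all 13.3%). None of the other motifs holds the letters of the CCAAT or GC box. The GC content went with the GC box, at a median of 64.5% in the 24 promoters called in all 3 Sirt7-/- samples, and its part was not tested. These shares are descriptions, and no motif was tested against the calls.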

How the data were processed

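Chromatin of spermatogonia-enriched cells of Pnd 5 mouse testes was immunoprecipitated with an H3K36ac antibody, and 6 ChIP samples with 6 input libraries make up the series. Per the labels and the study's methods, the authors used Trim Galore 0.6.6 to trim the reads and Bowtie2 2.4.4.1 to map them on mm10, kept unique, non-duplicate reads of mapping quality 30 or more with SAMtools 1.19.2 and Sambamba, and called broad peaks in each sample with MACS2 2.2.5 at a broad cutoff of 0.1. A nucleosome spike-in was added, and no factor from it was applied. Each deposited list gives position, a score (column not used), fold (the ratio over input) and the -log10 of p and of q, all as the authors' caller wrote them. The input libraries have no list of their own. Per the study, replicates are biological and come from separate mice. The lists hold no read counts at peaks, so no counting interval is given, and the library totals that the study states are not used as values here.

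A gene start was the 5′ end of the gene in the RefSeq table of GRCm38.p6. Strand came from RefSeq promoter sequences for 17492 genes (54 of the 58) and from GENCODE by symbol for 3976 (4 of the 58). Of 21900 protein-coding genes 21468 had a strand and served as background. A peak within 3000 bp of a start, by any overlap, called the gene, and the best ranked peak by -log10 q was used. A rank was compared only within its list. Exon and intron annotation of this build was not used here. The genes, role lists and marker lists were chosen with earlier results of these data known. Genes named with values were those called in all 6 samples, the 10 of best mean rank in Sirt7-/-, those called in 2 or more WT samples, the 5 best ranked of those called throughout Sirt7-/- but never in WT, those called in WT but not in all Sirt7-/- samples, those called nowhere and those next to the 3000 bp limit. The exact permutation test used the 6 sample medians, and the samples were treated as unpaired. The alternatives were a 1000 bp window, -log10 q of at least 2, equal list lengths, the peak midpoint, the nearest protein-coding start, each sample left out, a replicate block and RefSeq transcript starts. The overlap rule was checked on 2000 simulated peaks, of which 100% were assigned as built, and against bedtools 2.31.1. Python 3.11.15, NumPy 2.4.6, SciPy 1.17.1, pandas 2.3.3 and matplotlib 3.10.9 were used.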

Additional observations from a re-analysis of the deposited data

How the results depend on the processing

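Of the alternative values, 12 moved and 1 reversed. Of the other 72, counts stayed within 1.5 times and ratios within the spread of the ratio. Distances of peaks from the gene start kept their direction, in a design that allows no p below 0.1. The spread of the ratio was wide, at 2.15 around 2.89. Ratios from 1.15 with equal lists to 4.89 without WT replicate 2 therefore all counted as unchanged. Some of the 72 could not change, such as the WT mean when a Sirt7-/- sample was left out. The distance itself ranged widely, at 94.7 bp with a 1000 bp window, 289 bp with -log10 q of at least 2, 177 bp with equal lists and 122 bp with RefSeq transcript starts, against 20.8 bp. Requiring a -log10 q of at least 2 lowered the WT mean to 8 genes and the genes called in all 6 samples to 1, Bud31, and raised those called in none to 16. With the 64 best peaks of every list the means were 4.33 genes in WT and 5 in Sirt7-/-, no gene was called in all 6 samples (0) or throughout Sirt7-/- but never in WT (0), and 44 were called in none. That setting shortens 5 of the 6 lists by its construction. Counting a peak only for its nearest protein-coding start turned the difference in distance to -0.917 bp (exact permutation p = 1). The cause was not tested.

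Leaving out 1 sample at a time gave WT means of 7.5 to 16.5 genes, Sirt7-/- means of 34.5 to 38.5 and ratios of 2.22 to 4.89. Over the samples that remained, it gave 4 to 9 genes called in all, 6 to 14 called throughout Sirt7-/- but never in WT and 9 to 13 called in none. These counts of genes can only stay or rise when fewer samples are required. The differences in distance were 0.75 to 52.5 bp. WT replicate 2 set the lowest WT mean and the count of 14, WT replicate 3 the count of 9, and leaving out Sirt7-/- replicate 3 gave 13. Deviations of same-numbered samples over 21468 starts correlated at 0.0281, 0.0197 and 0.00767, so the numbers were not taken to pair the samples. With a replicate block the difference in distance was 20.8 bp (exact sign-flip p = 0.75, smallest possible 0.25). The RefSeq transcript starts were added after seeing the data. The lists give no reads where no peak was called, which limits what a missing peak shows.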
